A study of Mus musculus with 12 samples.

Results

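The transcription factor genes examined here are 9 regulators of the cranial neural crest: the aristaless-like homeobox gene Alx1, the AP-2 genes Tfap2a and Tfap2b, the homeobox genes Msx1 and Msx2, the Ets-domain gene Ets1, and the inhibitor of DNA binding genes Id1, Id2 and Id3. They were taken as every probe set whose platform symbol is one of these names, which gave 20 of the 45101 probe sets on the array and 9 of the 18193 genes with a probe set of 1 symbol. The series holds 12 arrays of RNA from B16-F10, an established and pigmented melanoma cell line of the mouse. Cells had received the empty vector pMES, pMES with chicken FoxD3, or pMES with chicken FoxD3-VP16, whose repression domain at the C-terminus has been exchanged for the VP16 activation domain of a herpesvirus, with 4 arrays for each. All 3 vectors also make EGFP from an IRES on the same transcript, driven by the chick beta-actin promoter, so the control cells carry vector and EGFP as well. Transfection was transient, and EGFP-positive cells were sorted at 24 h, so the measurements concern short-term expression of a chicken protein in 1 cell line. Whether replicates came from separate cultures is not in the labels, so a p-value here measures only how far these samples spread, which can be technical. Precision is limited by the number of arrays.

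Neural crest cells arise at the border of the neural plate, and their fate is set by a network of transcription factors that FoxD3 belongs to. AP-2 factors and the Msx homeobox factors act early in that network, at the neural plate border, and Msx and Id genes are well-known targets of BMP signalling. Id proteins have a helix-loop-helix domain but no DNA-binding region, so they bind E proteins and keep them off DNA. Ets1 and Alx1 mark cranial rather than trunk crest, and melanocytes, from which melanoma arises, are crest derivatives in which AP-2alpha remains active. The comparisons address which of these genes respond to FoxD3 and whether a protein with the opposite effector domain gives another response.

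Levels are given as log2(intensity + 16) after quantile normalization, and differences are differences of these levels, a scale that understates the change of dim genes. A gene was tested where its mean over the 12 arrays reached 5.98, and it is said to have risen or fallen where the adjusted p was under 0.05. Arrays that share a replicate number deviated together, as did those numbered 3 and 4. A second fit, blocked on the number, is therefore given for the members wherever it changes a call, and for the other genes as counts with examples. The 3 arrays numbered 1 stood apart from the other 9. Their median log2 value before normalization was 6.74 to 6.94 against 6.15 to 6.28, and their 18S control was 12.8 to 13.1 against 9.31 to 10.1. Within numbers, FoxD3 arrays had lower hybridization controls than empty vector arrays in 4 of 4 pairs, by -0.12 on average, and FoxD3-VP16 arrays had medians above those of FoxD3 arrays, in 4 of 4 pairs and by 0.076 on average. In two-sided exact permutation tests of the signs of the pairs, both gave p = 0.125, the smallest that 4 pairs allow (adjusted p = 0.75 over 12 tests of 4 array measures). All 8 melanocyte markers examined lay above the limit, and their summed level was 17.5 to 17.6 with the empty vector, 17.3 to 17.4 with FoxD3 and 17.4 to 17.5 with FoxD3-VP16, so that the FoxD3 arrays lay below the empty vector arrays. Mitf, the master regulator of pigment cells, fell with FoxD3 (-1.09, adjusted p = 0.00483), and Sox10, a crest factor upstream of it, rose with FoxD3 (0.73, adjusted p = 0.00287) and fell with FoxD3-VP16 (-0.72, adjusted p = 0.0178). With the block Tyr and Tyrp1 fell with FoxD3 as well (-0.78 and -0.28). The blocked fit also called Mitf and Tyrp1 lower with FoxD3-VP16 (-0.43 and -0.25, adjusted p = 0.0282 and 0.0092), and Mlana higher (0.17, adjusted p = 0.0444). The part of these markers in the members' changes was not tested.

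With FoxD3, Alx1 and Tfap2a fell. They were 2 of 6 tested members, where 4.01% of the 10916 genes tested passed and 1.12% passed as lower. With the block, Ets1 and Id2 fell as well and Id3 rose, which made 5 of 6 members, where 21.0% of genes passed, 9.21% as lower and 11.8% as higher. The 4 FoxD3 arrays did not overlap the 4 empty vector arrays for the same 2 members, against 11.5% of genes. The median change of the 6 tested members was -0.55, against -0.0041 over all genes tested. The mean of all 6 was above the limit with every vector, the lowest being that of Id1 with FoxD3-VP16, at 6.29.

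With FoxD3-VP16, none of the 6 passed against the empty vector in limma without the block, where 0.595% of genes did. 1 member, Ets1, had an unadjusted p under 0.05. The share of all genes with such an unadjusted p was not counted, here or for the pathway genes below. With the block 2 passed, Ets1 lower and Id3 higher, where 11.1% of genes passed, 5.41% as lower and 5.73% as higher. For none of the 6 did the arrays of the 2 vectors lie apart, against 5.71% of genes, and the median change was -0.19 against -0.019 over all genes. Between the 2 FoxD3 proteins, Alx1 and Tfap2a were higher with FoxD3-VP16, where 9.57% of genes passed and 4.44% passed as higher. The arrays lay apart for both, as for 18.2% of genes. With the block Id2 was also higher and Id1 lower, making 4 of 6, where 32.0% of genes passed, 14.6% as higher and 17.5% as lower. The median difference there was 0.15 for the 6 members and -0.027 over all genes. Each pair of comparisons shares 1 group of arrays, so the 3 sets of values are not independent.

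**Figure D1:**
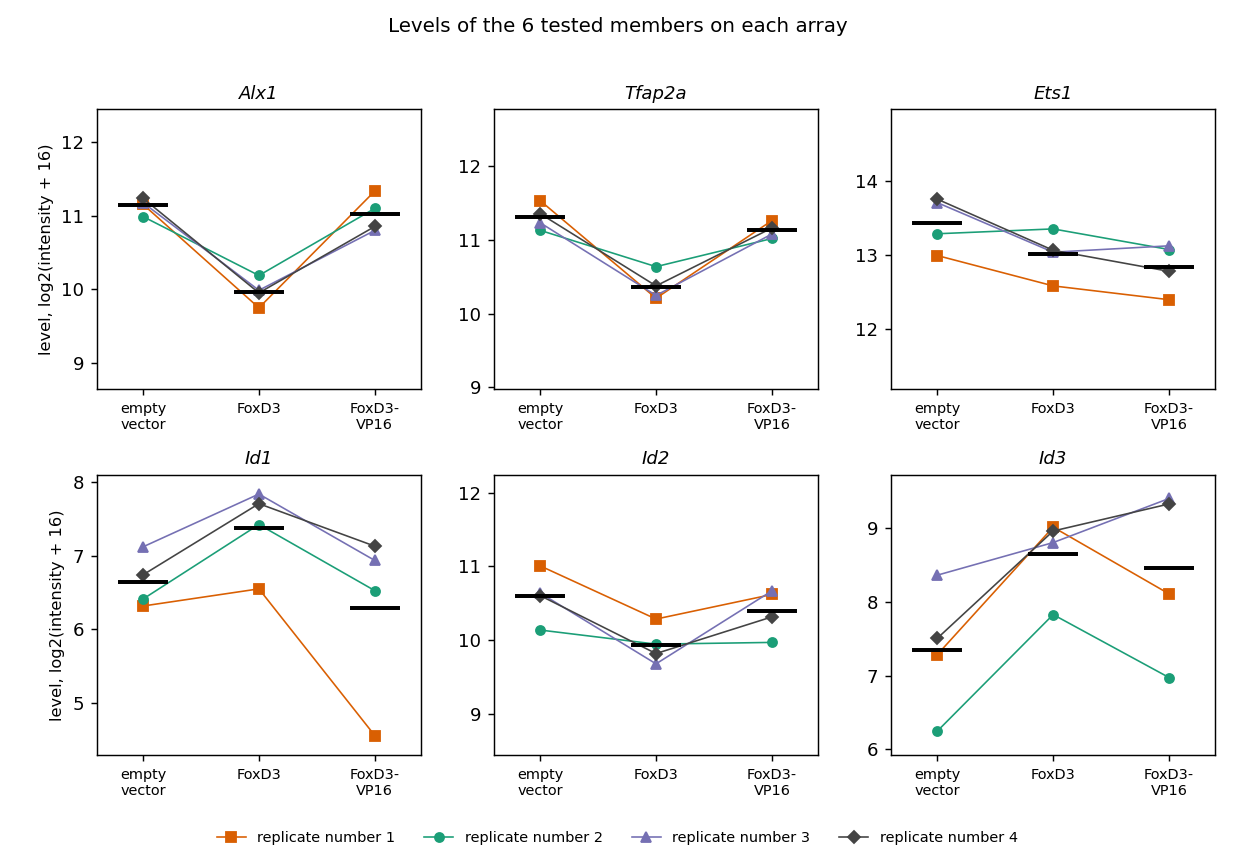
Level of each of the 6 tested members as log2(intensity + 16) with the 3 vectors, 1 panel a gene, all panels spanning the same range; each marker is 1 array, lines join arrays of the same replicate number, and the thick bar is the mean of 4. The FoxD3 arrays of Alx1 (9.75 to 10.19) and Tfap2a (10.21 to 10.64) lie below all arrays of the other vectors, while Id1, Id3 and Ets1 differ as much between replicate numbers as between vectors.

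Alx1, a paired-type homeobox gene needed for frontonasal structures, was lowest with FoxD3. Its brighter probe set, 1435022_at, read 11.15, 10.99, 11.18 and 11.24 on the empty vector arrays 1 to 4. With FoxD3 it read 9.75, 10.19, 9.99 and 9.95, and with FoxD3-VP16 11.33, 11.10, 10.80 and 10.85. The 4 FoxD3 arrays lay below all 8 others, while those of the other 2 vectors overlapped. Alx1 thus fell with FoxD3 by 1.17 (SE 0.15, adjusted p = 0.00099), a 2.25-fold decrease, in 4 of 4 same-number pairs. With FoxD3-VP16 the difference from the empty vector was -0.12, with a 95% interval of -0.44 to 0.21 (adjusted p = 0.905). Between the 2 proteins Alx1 was 1.05 higher with FoxD3-VP16 (SE 0.15, adjusted p = 0.000835). In bulk RNA of this kind, fewer cells that express a gene and less RNA per cell cannot be told apart. The vector accounted for 91.4% of the variance of Alx1 over the arrays and the replicate number for 0.624%. The call with FoxD3 was lost with the 3 arrays numbered 4 left out, where the change was -1.14 (adjusted p = 0.0529), and that between the proteins with array medians subtracted in place of quantile normalization (0.97, adjusted p = 0.0626).

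The second Alx1 probe set, 1456454_at, showed a decrease of like size. It read 7.67, 7.89, 7.69 and 7.30 with the empty vector and 6.46, 6.17, 6.09 and 6.50 with FoxD3, and these arrays did not overlap. In the fit of single probe sets, where 2.48% of 20967 probe sets passed, it fell by 1.33 with FoxD3 (SE 0.30, adjusted p = 0.0360). With FoxD3-VP16 it read 6.42, 7.81, 7.57 and 7.14, so that array 1 stood with the FoxD3 arrays and the other 3 near the empty vector. The difference between the proteins, 0.93 higher with FoxD3-VP16, had an adjusted p of 0.0307 when blocked and of 0.0888 otherwise. Without the block 6.71% of probe sets passed in that comparison, and with it 24.4%.

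Tfap2a encodes AP-2alpha, a factor of the neural plate border that later acts beside Mitf at pigment genes. Its brightest probe set, 1421996_at, read 11.53, 11.13, 11.23 and 11.36 with the empty vector, 10.21, 10.64, 10.25 and 10.38 with FoxD3, and 11.26, 11.02, 11.08 and 11.16 with FoxD3-VP16. As for Alx1, the FoxD3 arrays lay below all others and the arrays of the other vectors overlapped. Tfap2a fell with FoxD3 by 0.95 (SE 0.14, adjusted p = 0.00213), a 1.93-fold decrease, lower in 4 of 4 pairs. With FoxD3-VP16 it was also lower in 4 of 4 pairs, by -0.27 to -0.11, but the mean difference of -0.18 (95% interval -0.49 to 0.12) did not pass (adjusted p = 0.773; 0.345 with the block). Between the proteins it was 0.76 higher with FoxD3-VP16 (adjusted p = 0.00405). With the mean of its probe sets that difference was 0.43 and did not pass (adjusted p = 0.0774).

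A second Tfap2a probe set, 1426048_s_at, had a mean close to that of the first and a smaller change. Its 3 arrays numbered 1 read 11.92, 11.28 and 11.76, and no other array of any vector exceeded 11.03. Within each number it was lower with FoxD3, by -0.44 to -0.76, with a mean of -0.65. That change passed when blocked (adjusted p = 0.000504), but the unblocked fit did not call it (adjusted p = 0.392). The difference between the proteins, 0.43, behaved alike (adjusted p = 0.00423 with the block, 0.513 without). Where this probe set becomes the brighter of the pair, as in the values as deposited, the gene's change was -0.67 and did not pass (adjusted p = 0.269). With the first probe set kept throughout, the call with FoxD3 held without any single array, but not without the arrays numbered 3 (adjusted p = 0.0681) or 4 (adjusted p = 0.0847), nor with array medians subtracted (-0.93, adjusted p = 0.105). The Tfap2a call between the proteins was lost in the same 3 settings (adjusted p = 0.0823, 0.0935 and 0.182). The remaining probe set, 1421995_at, differed by -0.73 with FoxD3 without passing (adjusted p = 0.542; 0.123 with the block). With FoxD3-VP16 it differed by -0.65 (adjusted p = 0.798; 0.222 with the block). Between the proteins it hardly differed, by 0.089 (adjusted p = 0.954; 0.862 with the block), unlike the other Tfap2a probe sets. Its arrays numbered 1 read 7.50, 6.13 and 5.51 and were the lowest of each vector.

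Ets1, an Ets-domain activator that cranial crest cells need for their delamination, was lower with both proteins than with the empty vector. Probe set 1452163_at read 12.99, 13.29, 13.71 and 13.76 with the empty vector, 12.58, 13.35, 13.04 and 13.06 with FoxD3, and 12.39, 13.07, 13.12 and 12.78 with FoxD3-VP16. The arrays of the 3 vectors overlapped, and the replicate number held 44.0% of the variance against 41.9% for the vector. The difference from the empty vector was -0.43 with FoxD3 (lower in 3 of 4 pairs) and -0.59 with FoxD3-VP16 (lower in 4 of 4 pairs). Neither passed in the unblocked fit (adjusted p = 0.367 and 0.331), and both passed with the block (adjusted p = 0.0157 and 0.00579). Both also passed with array quality weights and no block (-0.65 and -0.76, adjusted p = 0.000123 and 0.000194), where 4193 and 3465 of the 10916 genes passed. The blocked call with FoxD3 was lost without numbers 1, 3 or 4 (adjusted p = 0.0584 to 0.0934) and that with FoxD3-VP16 without number 4 (adjusted p = 0.0729). Between the proteins the difference was -0.17, with a 95% interval of -0.64 to 0.30 (adjusted p = 0.739).

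The second bright Ets1 probe set, 1426725_s_at, set the vectors further apart. It read 13.37, 12.83, 13.31 and 13.25 with the empty vector and 12.64, 12.30, 12.70 and 12.20 with FoxD3-VP16, which did not overlap. The difference of -0.73 passed when blocked (adjusted p = 0.00715), as did 6.75% of probe sets, but not in the unblocked fit (adjusted p = 0.149), in which 0.300% did. With FoxD3 the change was -0.47 (adjusted p = 0.0311 with the block, where 14.3% of probe sets passed, and 0.240 without). The other probe sets, 1422028_a_at and 1422027_a_at, differed by -0.76 and -0.33 with FoxD3 and by -0.53 and -0.36 with FoxD3-VP16, and passed in no fit. For the first of them, FoxD3 array 1 read 5.98 and the other 11 arrays 7.28 to 8.90.

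With FoxD3, Id2 was lower and Id1 and Id3 were higher in 4 of 4 pairs each, which describes direction only. None of the 3 passed in the unblocked fit. With the block Id2 and Id3 passed and Id1 did not (adjusted p = 0.126). The share of all genes with 4 like pairs was not counted. Id2, by probe set 1435176_a_at, read 11.01, 10.14, 10.64 and 10.60 with the empty vector, 10.28, 9.94, 9.68 and 9.82 with FoxD3, and 10.62, 9.97, 10.67 and 10.31 with FoxD3-VP16. Each FoxD3 array lay below the empty vector array of the same number, though array 2 of the empty vector, at 10.14, reached into the FoxD3 range. The change of Id2 with FoxD3 was -0.67 (SE 0.22, adjusted p = 0.116; 0.00455 with the block). With array quality weights and no block it was -0.83 (adjusted p = 4.975e-05), where 4193 of the 10916 genes passed. Between the proteins Id2 was 0.46 higher with FoxD3-VP16, in 4 of 4 pairs, which passed with the block (adjusted p = 0.0219) and not in the unblocked fit of all arrays (0.222), and not with the block when number 3 or 4 was left out (adjusted p = 0.170 and 0.0980). Without the block it passed with array quality weights (0.65, adjusted p = 0.000699), as 4455 of the 10916 genes did. It also passed without number 1, where 1422537_a_at becomes the brighter Id2 probe set (0.57, adjusted p = 0.0115), but not where 1435176_a_at was kept (0.50, adjusted p = 0.110). With FoxD3-VP16 it differed from the empty vector by -0.20 (95% interval -0.67 to 0.26, adjusted p = 0.863). Of its other probe sets, 1422537_a_at gave -0.66 with FoxD3 (adjusted p = 0.0016 with the block, 0.339 without), and 1453596_at gave -0.27 (adjusted p = 0.817). Between the proteins 1422537_a_at was 0.66 higher with FoxD3-VP16, in 4 of 4 pairs. That passed with the block (adjusted p = 0.000773), as did 24.4% of probe sets, and not without it (0.222). There 1453596_at gave 0.079 (adjusted p = 0.940; 0.875 with the block). Against the empty vector, FoxD3-VP16 gave 0.00067 and -0.19 for these probe sets.

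Id3 was higher with both proteins than with the empty vector. It read 7.29, 6.25, 8.36 and 7.51 with the empty vector, 9.02, 7.83, 8.81 and 8.96 with FoxD3, and 8.11, 6.98, 9.41 and 9.33 with FoxD3-VP16. The arrays numbered 2 were the lowest of each vector, and the replicate number held 53.6% of the variance against 35.4% for the vector. The change was 1.30 with FoxD3 (SE 0.55, adjusted p = 0.250; 0.00332 with the block), a 2.47-fold difference. With FoxD3-VP16 it was 1.10 (adjusted p = 0.531; 0.0176 with the block), higher in 4 of 4 pairs. Array quality weights without the block gave 1.15 and 1.34 (adjusted p = 0.0123 and 0.0134), where 4193 and 3465 of the 10916 genes passed. The blocked call with FoxD3 held with any 1 number left out, and that with FoxD3-VP16 did not without number 3 or 4 (adjusted p = 0.058 and 0.174). Between the proteins Id3 differed by -0.20, with a wide 95% interval of -1.38 to 0.98.

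Id1, which has 1 probe set, was the tested member whose 2 differences from the empty vector pointed in opposite directions. It read 6.32, 6.41, 7.12 and 6.74 with the empty vector, 6.55, 7.42, 7.84 and 7.71 with FoxD3, and 4.56, 6.53, 6.94 and 7.13 with FoxD3-VP16. The 3 FoxD3 arrays numbered 2 to 4 lay above every other array, and FoxD3-VP16 array 1 lay far below the rest. The change with FoxD3 was 0.73 (SE 0.50, adjusted p = 0.552; 0.126 with the block) and, with the block and without number 1, 0.98 (adjusted p = 0.00993). It was 0.92 with array quality weights and no block (adjusted p = 0.00312), where 4193 of the 10916 genes passed. With FoxD3-VP16 it was -0.36 (adjusted p = 0.919; 0.511 with the block) and without number 1 0.12, so its sign rests on that array. Between the proteins Id1 was lower with FoxD3-VP16 in 4 of 4 pairs, by -1.09, which passed with the block (adjusted p = 0.0195) and not in the unblocked fit (0.216). With array quality weights and no block it passed as well (-0.83, adjusted p = 0.00905), as did 4455 of the 10916 genes. The blocked call held without number 1 (-0.86, adjusted p = 0.0108) and was lost without number 2 or 3 (adjusted p = 0.0562 and 0.0724).

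The sequences before Id2 and Id3 are shown because these genes of 1 family moved in opposite directions with FoxD3 in the blocked fit. They are the 250 bases before each annotated start, from RefSeq on GRCm38.p6, at chr12:25096093-25096342 on the minus strand for Id2 and chr4:136143572-136143821 on the plus strand for Id3, 5′ to 3′. Capitals mark the match to GGCGCC, a BMP SMAD motif, in Id2, and to GCCNNNGGC, an AP-2 motif, in Id3.
Id2: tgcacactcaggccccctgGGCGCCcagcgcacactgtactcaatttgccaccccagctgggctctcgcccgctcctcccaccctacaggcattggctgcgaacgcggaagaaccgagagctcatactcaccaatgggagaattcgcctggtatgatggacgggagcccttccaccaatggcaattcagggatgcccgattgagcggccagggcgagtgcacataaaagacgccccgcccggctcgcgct
Id3: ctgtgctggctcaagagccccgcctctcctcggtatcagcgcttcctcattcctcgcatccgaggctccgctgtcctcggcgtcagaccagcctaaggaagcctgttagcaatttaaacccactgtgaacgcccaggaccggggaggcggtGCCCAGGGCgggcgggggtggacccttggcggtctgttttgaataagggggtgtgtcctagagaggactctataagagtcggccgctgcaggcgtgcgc
The table of promoters matched 6 of the 9 members with 7 windows, Tfap2a having 2, and Alx1, Ets1 and Id1 are not among them. Both strands were searched for the 2 motifs above, the forkhead motifs TGTTTAC and TGTTTGT and the E-box CANNTG, none of which was searched for overlap with another. The forkhead motifs matched in 0 of the 7 windows, and in 3.17% and 5.84% of 32851 windows of the same length from all genes. GGCGCC matched in Id2 only, 231 to 226 bases before the start (9.59% of all windows), and GCCNNNGGC in Id3 only, 99 to 91 bases before it (13.7%). The E-box matched in Id2, Msx1, Msx2 and Tfap2b (66.2% of all windows). A match is a description of these letters and not a site, and the absence of one says nothing about the factor.

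**Figure D2:**
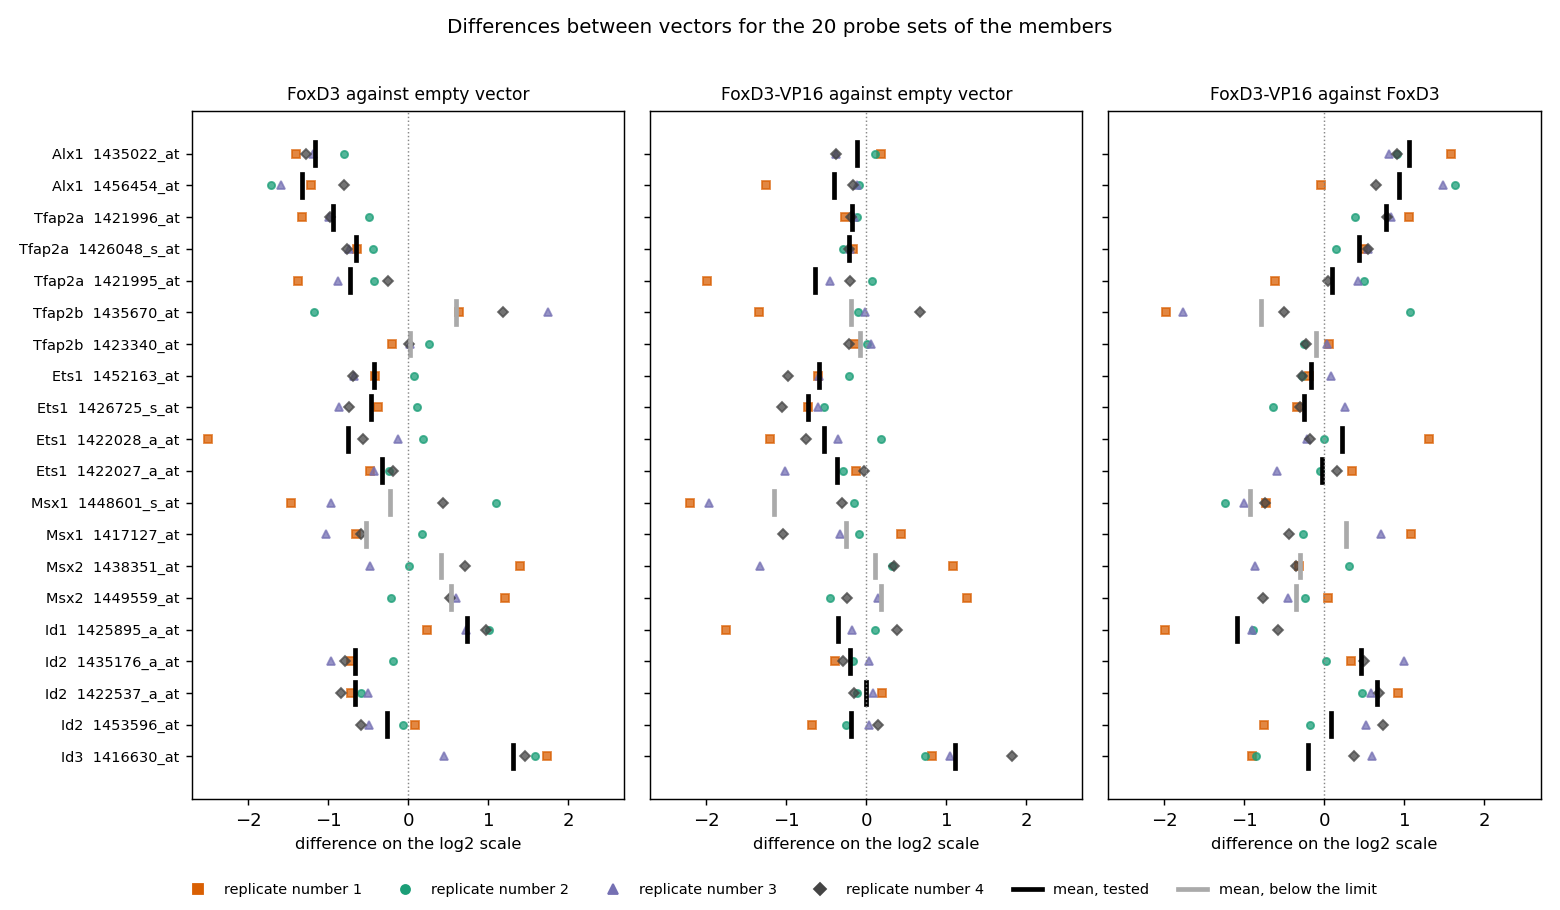
Difference between 2 vectors on the log2 scale (horizontal axis) for each of the 20 probe sets, brightest first within a gene, 1 panel a comparison; markers are the 4 same-number differences and the bar is their mean, grey where the probe set was below the limit. Both Alx1 and all 3 Tfap2a probe sets lie to the left of 0 on every array pair in the first panel, and Id3 lies to the right of 0 on every pair in the first 2 panels.

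Tfap2b, Msx1 and Msx2 lay below the limit and were not tested, so their values are a description. Tfap2b, the paralog of Tfap2a that is also an early crest gene, read 5.69, 5.77, 4.24 and 4.12 with the empty vector, 6.32, 4.59, 5.98 and 5.30 with FoxD3, and 4.35, 5.66, 4.22 and 4.79 with FoxD3-VP16. The groups overlapped, and the mean differences from the empty vector were 0.60 and -0.20. Its other probe set gave differences of 0.024 and -0.075.

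Msx1, a BMP-responsive repressor of the neural plate border, read 6.82, 4.73, 6.23 and 5.83 with the empty vector, 5.36, 5.82, 5.27 and 6.27 with FoxD3, and 4.62, 4.57, 4.27 and 5.53 with FoxD3-VP16. It was lowest with FoxD3-VP16 in 4 of 4 numbers, by -1.15 on average against the empty vector and -0.93 against FoxD3. The second Msx1 probe set gave -0.26 and 0.27 for the same differences, so the probe sets differed. Msx2, its close relative, read 7.13, 8.53 and 8.22 on array 1 of the empty vector, FoxD3 and FoxD3-VP16. Its other 9 arrays read 4.09 to 5.42, so this probe set, 1438351_at, was highest on the arrays numbered 1, and the mean differences from the empty vector were 0.41 and 0.11. The second Msx2 probe set, 1449559_at, read 4.47, 5.68 and 5.74 on the same 3 arrays and was thus not raised on array 1 of the empty vector, whose other arrays read 4.53 to 4.70. Its mean differences were 0.53 and 0.18.

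**Figure D3:**
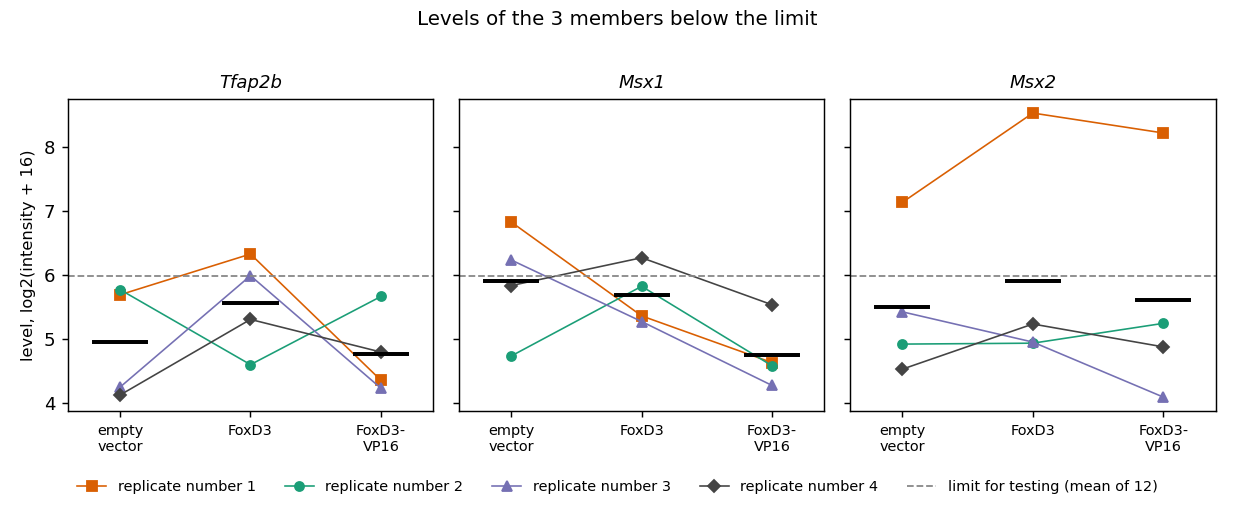
Level of Tfap2b, Msx1 and Msx2 as log2(intensity + 16) with the 3 vectors, in the same markers as for the tested members; the dashed line is the limit of 5.98 that the mean of 12 arrays had to reach. Most arrays lie below the line, and Msx2 exceeds it only on the 3 arrays numbered 1.

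By order of level, Alx1, Tfap2a and Id2 were highest with the empty vector, then with FoxD3-VP16, and lowest with FoxD3. The difference between the first 2 vectors passed in neither fit for these 3 genes, with blocked adjusted p = 0.616 for Alx1, 0.345 for Tfap2a and 0.374 for Id2. Tfap2a was nevertheless lower with FoxD3-VP16 in 4 of 4 pairs. With array quality weights Alx1 passed as lower (-0.33, adjusted p = 0.0120), where 3465 of the 10916 genes passed in either direction. Ets1 was highest with the empty vector, then with FoxD3, then with FoxD3-VP16, and the difference between the proteins did not pass (adjusted p = 0.282 with the block). Id3 was highest with FoxD3, then FoxD3-VP16, a difference that did not pass (adjusted p = 0.600 with the block), and lowest with the empty vector. Id1 was highest with FoxD3, then the empty vector, then FoxD3-VP16, and the differences between neighbours in that order did not pass (adjusted p = 0.126 and 0.511 with the block).

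The genes whose pattern was most like that of each member were ranked by Pearson correlation over the 12 arrays, after the mean of each replicate number was subtracted, among 10915 other genes. The arrays share the 3 vectors, so a gene whose group means stand in the same proportions ranks high, and the coefficients are a description. For Alx1 they were Fbxo8, Gask1b and Cep170 (each 0.99), with changes of -0.56, -0.83 and -0.73 with FoxD3. For Tfap2a they were the glial cadherin gene Cdh19, the formin gene Fmnl2 and the BMP receptor gene Acvr1 (each 0.98), with changes of -1.21, -0.88 and -0.75. Ets1 was most like Lin54 (0.98), Trappc8 and Tardbp (each 0.96). Id2 was most like Snhg8, the chromatin remodeller gene Atrx and Zfand1 (each 0.97), Id1 like Opn3, Stk10 and Fbxl15 (0.96 to 0.98), and Id3 like Atp5h, Tmem101 and Zfhx3 (0.90 to 0.93).

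Among the paralogs of the members, 8 of 9 on the array were below the limit, including Tfap2c, Id4, Alx4 and Msx3. The exception was Ets2, which was lower with FoxD3-VP16 than with FoxD3 by -0.74 (adjusted p = 0.0405), without passing against the empty vector for either protein (0.33 with FoxD3 and -0.41 with FoxD3-VP16). The Ets2 call held in 24 of 48 alternative settings, and not with no filter on low values (adjusted p = 0.0890). In the BMP pathway, which controls Id and Msx genes, 2 of 15 tested genes fell with FoxD3, against 1.12% of all genes, and the median change was -0.14, against -0.0041. Bambi, a pseudoreceptor that dampens BMP and TGF-beta signals and is itself a BMP target, went from 8.92 ± 0.27 (SD, n = 4) to 7.55 ± 0.13, a change of -1.38 (adjusted p = 0.00104). The type I receptor gene Acvr1 went from 10.40 ± 0.27 to 9.65 ± 0.079, a change of -0.75 (adjusted p = 0.0224). Against FoxD3, FoxD3-VP16 gave higher levels of both, by 1.58 for Bambi (adjusted p = 0.0002) and 0.60 for Acvr1 (adjusted p = 0.0359). Of 48 alternative settings, Bambi passed in 44 with FoxD3 and in all 48 between the proteins, and Acvr1 in 29 and 24. With the mean of its probe sets, Acvr1 differed between the proteins by 0.30 (adjusted p = 0.403). With the block, Smad1 and Smad4, which carry the signal, also fell with FoxD3 (-0.36 and -0.28), and Acvr2b and the inhibitory Smad6 and Smad7 rose (0.84, 1.24 and 0.59), making 4 lower and 3 higher of 15, against 9.21% and 11.8% of all genes. Between the proteins 7 BMP genes were higher with the block and 1 lower, against 14.6% and 17.5% of all genes. With FoxD3-VP16 no BMP gene passed in limma against the empty vector without the block, 2 had an unadjusted p under 0.05, and with the block Smad6 (1.21) and Hipk2 (0.76) rose, 2 of 15 where 11.1% of all genes passed.

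The 5 tested partners of Id proteins and related basic helix-loop-helix factors had a median change of -0.37 with FoxD3. Of these Hes1, a repressor downstream of Notch, rose with FoxD3 by 1.08 (adjusted p = 0.0491), a call that held in 18 of 48 alternative settings and not with pseudocount 1 (adjusted p = 0.0608) or no filter (adjusted p = 0.103). Hes1 was lower with FoxD3-VP16 than with FoxD3 by -1.48 (adjusted p = 0.00498), in 46 of the 48. Tcf4, an E protein that Id proteins bind, read 10.38 ± 0.31 with the empty vector, 9.47 ± 0.57 with FoxD3 and 11.54 ± 0.24 with FoxD3-VP16 (SD, n = 4). The difference of 2.07 between the proteins passed (adjusted p = 0.000316). The changes of -0.91 and 1.16 against the empty vector did not pass in the unblocked fit (adjusted p = 0.0701 and 0.0762). They passed with the block (adjusted p = 0.000483 and 0.00033), and in 8 and 11 of the 48 alternative settings. With the block the E protein gene Tcf12 and Usp1, which encodes the deubiquitinase of Id proteins, also fell with FoxD3 (-0.58 and -0.37). This made 3 lower and 1 higher of 5, where 9.21% of all genes passed as lower and 11.8% as higher. Between the proteins the blocked fit called Tcf4, Tcf12 and Usp1 higher with FoxD3-VP16 and Hes1 lower, against 14.6% and 17.5% of all genes.

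Of the 7 tested AP-2 cofactors and inhibitors, whose median change with FoxD3 was -0.12, 1 changed, where 4.01% of all genes passed with FoxD3. Cited2, which joins AP-2 to the acetyltransferases CBP and p300, went from 12.79 ± 0.26 with the empty vector to 11.46 ± 0.29 with FoxD3 and 13.64 ± 0.19 with FoxD3-VP16 (SD, n = 4). It fell with FoxD3 (-1.33, adjusted p = 0.00099) and rose with FoxD3-VP16 (0.85, adjusted p = 0.0478). The fall of Cited2 held in 46 of 48 alternative settings and the rise in 15, and not with the values as deposited (adjusted p = 0.144) or pseudocount 1 (adjusted p = 0.0503). Of 11 other Ets-domain genes tested, with a median change of 0.058, Elf1 fell with FoxD3 (-0.92, adjusted p = 0.00884) and was higher again in FoxD3-VP16 cells (0.99 above FoxD3, adjusted p = 0.00283). With the mean of its probe sets, Elf1 differed by -0.28 with FoxD3 (adjusted p = 0.697) and by 0.59 between the proteins (adjusted p = 0.194), and with array medians subtracted neither passed (adjusted p = 0.393 and 0.221). The Ets repressor gene Erf was lower with FoxD3-VP16 than with FoxD3 (-1.16, adjusted p = 0.0192), in 33 of 48 alternative settings, and by -0.34 with the mean of its probe sets (adjusted p = 0.558). With the block Erf also rose with FoxD3 (0.54, adjusted p = 0.0212) and fell with FoxD3-VP16 (-0.62, adjusted p = 0.0205). The blocked fit called 2 of 11 Ets-domain genes higher (Gabpa and Erf) and 2 lower (Elf1 and Elf2) with FoxD3. Over all genes 11.8% passed as higher and 9.21% as lower. With FoxD3-VP16 it called 2 higher (Elk3 and Etv5) and 2 lower (Elf2 and Erf), against 5.73% and 5.41% of all genes. Between the proteins it called 3 higher and 4 lower of 11, against 14.6% and 17.5% of all genes. Of 9 tested partners of the cranial crest programme, none passed with FoxD3 in limma without the block. Their median change was -0.49, against -0.0041 over all genes tested. An unadjusted p under 0.05 was seen for 4 of the 9, and the share of all genes with one was not counted. With the block Foxc1, Meis2, Zic1 and Myc fell (-0.62, -0.59, -0.87 and -0.61), 4 of 9, where 9.21% of all genes passed as lower. Meis2, a homeobox cofactor, was higher with FoxD3-VP16 than with FoxD3 by 0.84 (adjusted p = 0.0340), in 28 of 48 alternative settings, and not with array medians subtracted (adjusted p = 0.466). With the block Myc was also lower with FoxD3-VP16 than with the empty vector (-0.77), and between the proteins Foxc1 was higher (0.58) and Dlx2 lower (-1.13).

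**Figure D4:**
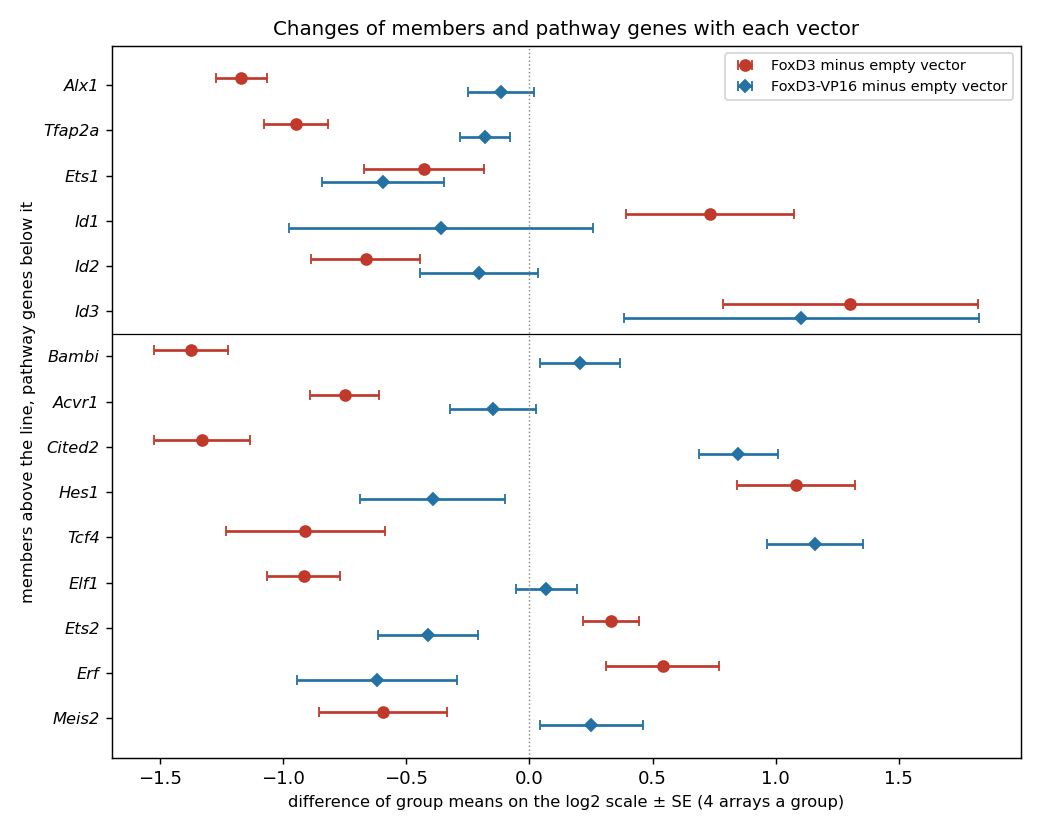
Difference of the FoxD3 arrays (circles) and the FoxD3-VP16 arrays (diamonds) from the empty vector arrays on the log2 scale for the 6 tested members and, under the line, the pathway genes called in a comparison; bars are the standard error of the difference from the SDs of the 4 arrays of each group. Both proteins are compared with the same 4 arrays. Id1, Bambi, Cited2, Hes1, Tcf4, Elf1, Ets2, Erf and Meis2 lie on opposite sides of 0 for the proteins. Alx1, Tfap2a, Ets1, Id2, Id3 and Acvr1 lie on the same side.

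Markers of other cell types were low, except for some fibroblast genes. Of 8 fibroblast markers, Col3a1, Thy1, Lum and Dcn were below the limit. The summed level of all 8 was 9.16 to 9.57 with the empty vector, 10.3 to 10.6 with FoxD3 and 9.89 to 10.3 with FoxD3-VP16. It thus lay above the empty vector range with both proteins, as the mean of Id3 did, and Alx1 and Tfap2a fell with FoxD3 only. Col1a1 (2.68) and Pdgfrb (1.84) rose with FoxD3, and Pdgfrb also rose with FoxD3-VP16 (1.60, adjusted p = 0.0240). Of the other 2 tested, Pdgfra differed with FoxD3 by 1.21, passing with the block, and Col1a2 by -0.72 without passing (adjusted p = 0.448). The part of these markers in the members' changes was not tested here either. Of the endothelial, leukocyte and keratinocyte markers, 4 of 5 each were below the limit.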

How the data were processed

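RNA of EGFP-sorted B16-F10 cells was hybridized to 12 one-colour arrays, 4 for each of 3 vectors, and groups and replicate numbers come from the sample titles. The authors deposited 1 linear intensity per probe set and array. MAS5 is named, with no version, per the submitters' processing notes; dChip is named in the labels for the analysis. Detection calls were not used here.

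The log2(intensity + 16) of these values was quantile normalized. The 64 control probe sets were left out. The platform table gave 1 symbol to 34945 probe sets, several to 932 and none to 9160. The probe set with the highest mean stood for a gene, and the lowest 40% of 18193 genes by mean were left out, leaving 10916 genes. All 12 arrays entered 1 fit with limma 3.58.1 under R 4.3.3, using lmFit and eBayes with trend (9 residual and 3.98 prior degrees of freedom), and p-values were adjusted by Benjamini-Hochberg over all genes. Single probe sets were fitted in the same way, 20967 tested. Intervals are 95% intervals of that fit and are not adjusted. Promoter windows were searched and figures drawn in Python 3.11.15 with matplotlib 3.10.9. Before use, the scripts were tested on simulated data with known changes.

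For the 12 pairs of arrays that share a number, deviations from group means correlated at 0.37 to 0.67. For the 6 pairs of numbers 3 and 4 the range was 0.37 to 0.54, and for the 30 others -0.51 to 0.12. The numbers were taken to pair the samples, though these ranges do not separate same-number pairs from pairs of numbers 3 and 4. The labels do not say what arrays of 1 number share. Blocked on the number, the fit keeps 6 residual degrees of freedom, with 7.30 prior ones.

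The members, the gene lists and the tests were chosen with earlier results of these data known. Named genes are all members, up to 4 genes of each list called in a comparison, and the 3 genes most like each called member; genes called with the block only were named after their values were seen. Alternatives were other scalings, pseudocounts, filters, probe set choices, array weights, the block, and arrays or numbers left out. Some of the 48 were not planned at the start. These repeat other settings with the probe set of each gene kept, or the block without a number, so the 48 are not independent.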

Additional observations from a re-analysis of the deposited data

Results flagged for a closer look

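Msx2 stood out on FoxD3 array 1, which read 8.53 where the other 3 FoxD3 arrays read 4.93 to 5.23. The gap to the nearest array was 0.917 of the range of the 4, above Dixon's 95% critical value for 4 values. Of 27 groups of 4 arrays checked over the 9 members this was the one past that value, and chance marks about 1 group in 20. Array 1 was also the highest for Msx2 with the empty vector (7.13) and FoxD3-VP16 (8.22), and the arrays numbered 1 stood apart in their controls. The part of the array in the Msx2 value was not tested.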

How the results depend on the processing

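The values below are the members called in FoxD3 against empty vector, FoxD3-VP16 against empty vector and FoxD3-VP16 against FoxD3, which were 2, 0 and 2. The replicate block gave 5, 2 and 4, and array quality weights gave 6, 3 and 4. The calls over all genes changed with the setting as well. They were 438, 65 and 1045 without the block, 2297, 1217 and 3498 with it, and 4193, 3465 and 4455 with the weights. Values as deposited gave 1, 0 and 1, array medians subtracted gave 1, 0 and 0, and the mean of all probe sets gave 2, 0 and 1. With array medians subtracted, 187, 8 and 420 of all genes were called. Without single arrays the counts were 1 to 2, 0, and 1 to 2, Tfap2a being lost where its second probe set became the brighter. With probe sets kept, they were 2 to 3, 0 and 2, Id2 joining without empty vector array 2. Leaving out number 1 gave 3, 0 and 3, Id2 joining by its second probe set (2, 0 and 2 with probe sets kept). Number 2 left out gave 1, 0 and 1, number 3 gave 1, 0 and 1, and number 4 gave 0, 0 and 1. Over all genes, 63, 0 and 270 were called without number 3, and 33, 0 and 191 without number 4. With probe sets kept, medians subtracted gave 1, 0 and 0, number 3 left out 1, 0 and 1, and number 4 left out 0, 0 and 1. The block without number 1 gave 5, 2 and 4, without number 2 gave 5, 2 and 3, without number 3 gave 4, 1 and 2, and without number 4 gave 4, 0 and 3. Other pseudocounts, no filter, no trend and no probe sets of mixed type changed no count. Beyond the probe set, the causes were not tested.

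With FoxD3, the sign of all 6 tested members held in all 48 alternatives. Alx1 passed in 46 of them and Tfap2a in 32, and over all 48 the changes were -1.30 to -1.07 for Alx1 and -1.10 to -0.52 for Tfap2a. The 48 include unplanned repeats of other settings with the probe sets kept, so the tallies count like settings more than once. Tfap2a passed with FoxD3 in most of those repeats. Against the empty vector the sign of Id1 with FoxD3-VP16 changed, and between the proteins that of Id3, neither being called. The levels of Tfap2b, Msx1 and Msx2 limit what the arrays can show for them.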
